A study of Mus musculus with 103 samples.

Results

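The interferon response genes are a list of 39 mouse genes whose transcripts are known to increase when a cell is exposed to interferon. Of the 39 genes, 36 had at least 1 of 53 probe sets that name that gene alone, out of 22690 probe sets on the array. Isg15, Ifi44 and Xaf1 are not analysed on the arrays and enter only the promoter search below. A gene was represented by its probe set with the highest mean signal over all 103 arrays, and 11 of the 36 genes had other probe sets that were set beside it.

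The arrays came from a study of how labelling protocols profile very small amounts of RNA, and none of them followed a treatment with interferon. Tissue RNA was a commercial panel of spleen, lung, embryo, heart, kidney, ovary, brain and liver total RNA, and each tissue was on 2 arrays, one of them labelled with the Affymetrix one-cycle kit (1 ug) and the other with BIIB, a protocol developed at Biogen Idec (500 pg), 16 arrays in all. Universal RNA, a commercial mouse pool, was on 58 arrays. Tests used 4 of them labelled with one-cycle (1 ug), and 4 BIIB arrays at each of 10 pg, 50 pg, 500 pg and 5 ng. RAW267, a cultured line given in the labels by that name alone, was flow sorted into 50 to 10000 cells (11 arrays, BIIB). T and B lymphocytes were flow sorted from the splenocytes of 1 normal mouse and mixed at 0, 20, 40, 60, 80 and 100% B cells, in 2 arrays per mixture at 100 cells and 1 at 500 cells (18 arrays, BIIB). Strain, age and sex of the animals are not given in the labels. No label says that replicates are separate preparations, so the p-values cover only how much the arrays vary, and that variation may be technical.

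Values are MAS5 signals, a linear brightness per probe set, scaled to 1 level per array. Changes are differences ± SE in log2(signal + pseudocount) from limma, with a pseudocount of 5% of the common scaled mean, which shrinks the changes of dim genes. A call needed a Benjamini-Hochberg adjusted p below 0.05 over all probe sets tested and a change of at least 2-fold. The median signal per array lay between 230 and 1661 over the series. The arrays labelled brain carried liver markers (10 of 10 at a mean signal of at least 500, none of 9 brain markers), and those labelled liver carried brain markers (9 of 9, against 1 of 10 liver markers), in both protocols. They are called by their labels here, and their transcripts should be read with those markers in mind.

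Interferons act in 2 main branches. Type I interferons, made by infected cells and dendritic cells, signal through JAK kinases to a complex with STAT2 and IRF9 that binds the interferon-stimulated response element, or ISRE. Interferon gamma, made by T and NK cells, acts through the gamma-activated site, or GAS, and induces the factor IRF1, which also binds the ISRE. Their target genes include sensors of viral RNA, membrane proteins that block viral entry, GTPases that attack vacuoles around intracellular pathogens, and parts of antigen presentation. Spleen holds many lymphocytes and myeloid cells, and resting tissue is known to keep a low basal level of these transcripts.

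The ISRE and GAS cores were looked for on both strands of promoter windows of 250 bases before to 50 after the transcription start, taken from RefSeq (GRCm38.p6). The search letters were GAAANNGAAA for the ISRE and TTCNNNGAA for the GAS. Of the 39 listed genes 32 had windows (40 windows). The ISRE core was found in 15 of the 32 genes (46.9%), against 3.99% of all 27025 genes with windows (3.44% of 32851 windows). The GAS core was found in 9 of the 32 (28.1%), against 9.55% of all genes (8.3% of windows). A match is a description of these letters and no proof of binding. The promoters shown belong to genes that recur in the comparisons: 3 GTPase genes, Ifit1, Rsad2 and the factor Irf1. Only windows that held a match are shown. Of other recurring genes with windows, some had a match (Ifit3 and Bst2 among them). Others had none to either core, among them Sp100, Oasl1, Oasl2, Irf7, Tap1 and Lgals3bp. Capitals mark the matches to either core, and each line runs 5′ to 3′ on the strand of the gene.
Igtp, chr11:58199306-58199605, plus strand: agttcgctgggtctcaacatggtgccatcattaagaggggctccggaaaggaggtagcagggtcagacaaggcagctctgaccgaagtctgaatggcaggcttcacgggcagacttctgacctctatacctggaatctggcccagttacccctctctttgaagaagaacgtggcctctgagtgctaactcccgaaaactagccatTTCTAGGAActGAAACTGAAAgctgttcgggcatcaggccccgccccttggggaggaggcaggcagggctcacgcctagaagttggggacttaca
Irgm1, chr11:48871371-48871670, minus strand: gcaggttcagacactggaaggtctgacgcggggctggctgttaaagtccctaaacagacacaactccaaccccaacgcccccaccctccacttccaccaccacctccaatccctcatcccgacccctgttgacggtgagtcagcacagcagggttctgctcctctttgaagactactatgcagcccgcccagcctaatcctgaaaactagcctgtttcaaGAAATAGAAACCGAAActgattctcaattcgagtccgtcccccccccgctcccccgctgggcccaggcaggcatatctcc
Gbp2, chr3:142620413-142620712, plus strand: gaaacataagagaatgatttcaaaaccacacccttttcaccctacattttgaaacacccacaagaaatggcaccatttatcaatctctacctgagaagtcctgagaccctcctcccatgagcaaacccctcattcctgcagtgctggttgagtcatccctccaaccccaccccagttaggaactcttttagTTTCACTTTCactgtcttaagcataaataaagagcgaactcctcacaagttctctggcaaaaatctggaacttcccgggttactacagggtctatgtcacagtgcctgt
Ifit1, chr19:34640639-34640938, plus strand: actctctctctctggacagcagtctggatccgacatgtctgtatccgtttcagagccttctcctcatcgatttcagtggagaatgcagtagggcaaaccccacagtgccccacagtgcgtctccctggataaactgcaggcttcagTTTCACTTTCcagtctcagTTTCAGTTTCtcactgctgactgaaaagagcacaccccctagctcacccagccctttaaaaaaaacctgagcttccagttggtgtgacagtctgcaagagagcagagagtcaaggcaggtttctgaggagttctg
Rsad2, chr12:26456403-26456702, minus strand: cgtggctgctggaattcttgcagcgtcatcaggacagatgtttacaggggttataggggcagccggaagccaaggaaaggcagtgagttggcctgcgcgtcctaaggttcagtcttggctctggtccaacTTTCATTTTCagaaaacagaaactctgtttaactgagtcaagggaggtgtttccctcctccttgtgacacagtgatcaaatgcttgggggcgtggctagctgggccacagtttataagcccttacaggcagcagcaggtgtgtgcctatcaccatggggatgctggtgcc
Irf1, chr11:53769764-53770063, plus strand: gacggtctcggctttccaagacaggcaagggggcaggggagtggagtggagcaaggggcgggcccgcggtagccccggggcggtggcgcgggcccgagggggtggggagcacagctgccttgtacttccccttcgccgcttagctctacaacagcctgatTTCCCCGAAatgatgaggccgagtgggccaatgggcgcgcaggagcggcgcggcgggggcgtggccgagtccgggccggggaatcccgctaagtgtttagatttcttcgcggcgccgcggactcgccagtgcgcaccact
Igtp held a GAS core that starts 45 bases and an ISRE core that starts 34 bases before the transcription start, with no shared base. In Irgm1 2 ISRE cores, starting 30 and 24 bases before the start, overlapped. Gbp2 had 1 ISRE core at 59 bases, Ifit1 had 2 at 104 and 85 bases, and Rsad2 had 1 at 120 bases before the start. Irf1 had a GAS core at 90 bases and no ISRE core in its windows.

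Across the tissues the genes did not share 1 order. In both protocols 17 of the 36 were highest in spleen, 7 in heart (Gbp2, Gbp3, Ifit1, Ifit2, Igtp, Irgm1 and Tap2), 4 on the arrays labelled brain (Bst2, Ifitm2, Ifitm3 and Iigp1) and 1 in ovary (Ifitm1). The other 7 genes peaked in different tissues in the 2 protocols. Of the 18 genes with the same lowest tissue in both protocols, 10 were lowest in embryo and 6 on the arrays labelled liver, the others being Isg20 in kidney and Igtp in ovary. Of the 140 member and tissue pairs that were tested and not called in the fits below, the one-cycle and the BIIB array differed from the other tissues in the same direction in 109 and in opposite directions in 31. The 132 called pairs all had 1 direction, which the call itself nearly fixes, since it was made from those 2 arrays. The heatmap of the genes over the tissue arrays shows these orders side by side.

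**Figure D1:**
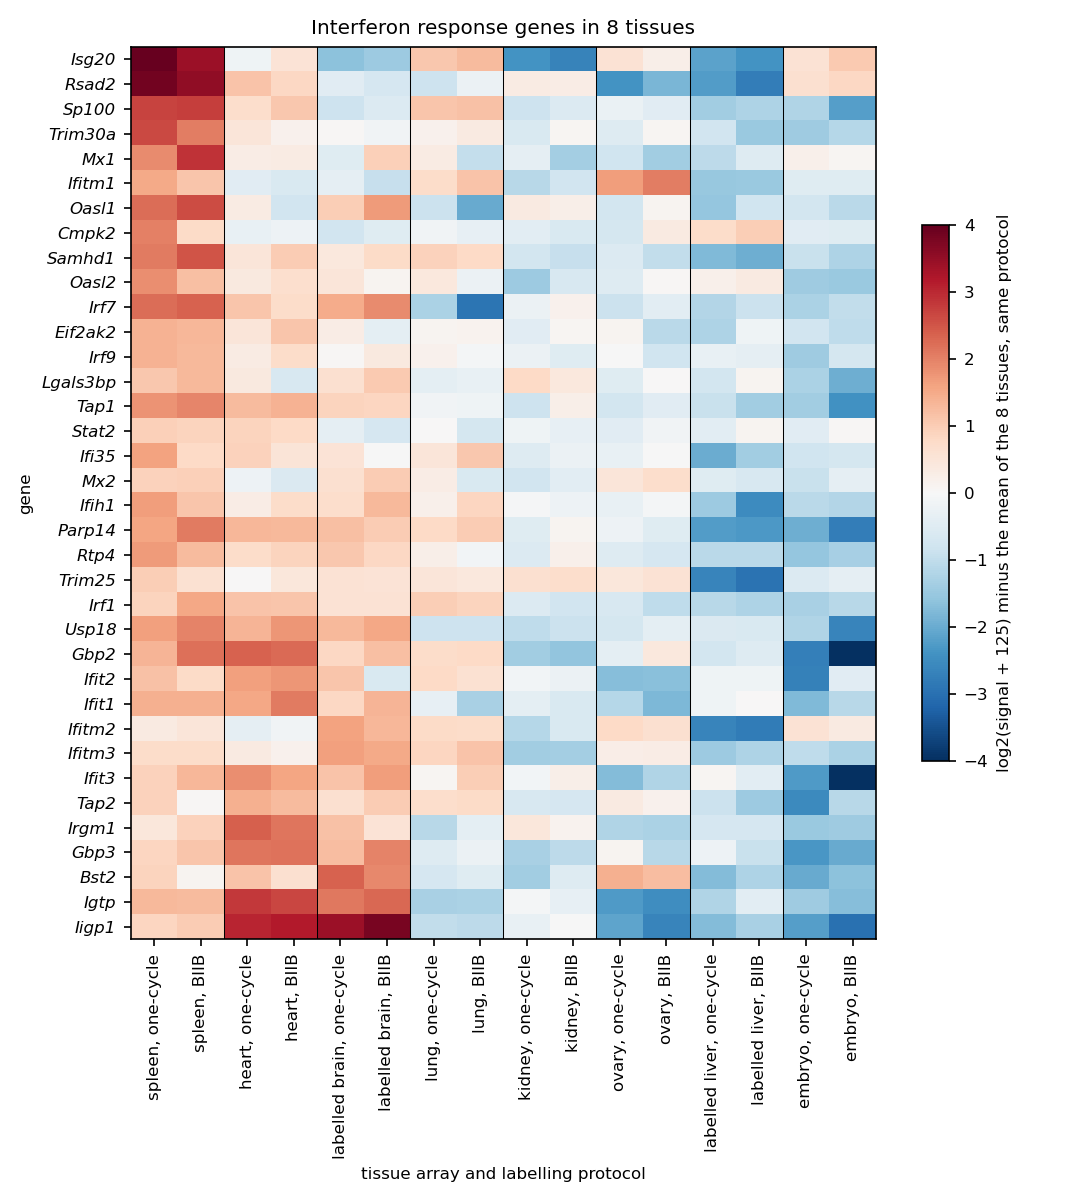
Heatmap of the 36 genes (rows) over the 16 tissue arrays (columns, 1 array per tissue and protocol). Colour is log2(signal + pseudocount) minus the mean of the 8 tissues of the same protocol, from -4 to 4, with genes ordered by spleen minus the mean of heart and the arrays labelled brain. Isg20 and Rsad2 stand out in spleen, Igtp in heart and Iigp1 both in heart and on the arrays labelled brain, and most genes are low in embryo and on the arrays labelled liver.

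In spleen 27 of 34 genes tested were called higher than in the mean of the other 7 tissues and 0 lower, where 14.8% of all probe sets were called higher and 19.5% lower. The genes' median change was 1.56, against -0.06 over all probe sets. Mx1 and Mx2, dynamin-like antiviral GTPases, were under the filter of a mean signal of 500 in the tissues. They were left out of the tissue tests, although Mx1 reached 1184 (one-cycle) and 2865 (BIIB) in spleen against 27.2 to 647 in the other tissues.

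Isg20, an exonuclease that degrades RNA, had a signal of 44857 by one-cycle and 52977 by BIIB in spleen, against 377 to 11663 in the other tissues (median 3044). The 2 spleen arrays lay above every other tissue array, by 4.30 ± 0.27 (adjusted p = 1e-06). Rsad2 encodes viperin, a radical SAM enzyme that blocks viral replication. It stood at 102470 and 107736 in spleen, against 1225 to 16008 elsewhere (median 6625), a change of 4.24 ± 0.26 (adjusted p = 7.6e-07). Its other 2 probe sets were called in the same direction, at 4.09 and 4.70.

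The remaining strong spleen genes were nuclear and cytosolic effectors and their regulators. Sp100, a nuclear body protein, was at 3.12 ± 0.27, Oasl1, an OAS-like protein that restrains Irf7 translation, at 2.77 ± 0.39, and Trim30a at 2.68 ± 0.29. Samhd1, which hydrolyses dNTPs and so limits reverse transcription, was at 2.64 ± 0.25, and Irf7, the factor that amplifies type I interferon production, at 2.64 ± 0.36. Tap1, a subunit of the peptide transporter that feeds class I molecules, was at 2.15 ± 0.32. Parp14 (2.09 ± 0.27), Usp18, which removes ISG15 and damps the type I receptor (2.08 ± 0.32), Gbp2 (2.03 ± 0.43) and Oasl2 (1.75 ± 0.30) also rose. For 11 of the 27 called genes the spleen arrays overlapped no other tissue array, against 23.8% of all probe sets called in spleen.

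Of the 7 genes not called in spleen all had positive changes, among them Irgm1 (0.77 ± 0.27), Tap2 (0.56 ± 0.35), Ifitm3 (0.85 ± 0.21) and Ifitm2 (0.49 ± 0.23). In all, 17 of the 27 calls held under every alternative run. Among the 12 largest, Gbp2 was not called without the BIIB spleen array, and Tap1 was not called when its probe sets were averaged. Samhd1's probe sets disagreed in size: 1 of the other 3 was called at 2.17, and the remaining 2 stood at 0.52 and 0.33, not called.

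Heart had 17 of 34 genes higher and 0 lower, with 10.4% of all probe sets called higher and 12.2% lower, and a median change of 1.00 against -0.13 over all probe sets. The leading genes were GTPases that interferon gamma induces. Iigp1, an immunity-related GTPase that disrupts the vacuole of Toxoplasma, had 125033 (one-cycle) and 107566 (BIIB) in heart, against 1354 to 165963 in the other tissues (median 6607). The higher values elsewhere were those of the arrays labelled brain, and the change was 3.56 ± 0.27 (adjusted p = 3.9e-06).

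Igtp, a regulatory member of the same GTPase family, had 65686 and 57892 in heart, against 1497 to 44768 elsewhere (median 5319), with no overlap (3.13 ± 0.24, adjusted p = 4.6e-06). Irgm1, which regulates these GTPases and autophagy, had 25015 and 11665, against 857 to 10790 (2.59 ± 0.27, adjusted p = 3.7e-05). The guanylate-binding proteins, another interferon gamma family, were likewise highest in heart. Gbp2 had 29052 and 19315, against 22.4 to 18553 (2.63 ± 0.43), and Gbp3 had 7134 and 6743, against 200.0 to 5917 (2.47 ± 0.33). For 4 of the 17 called genes the heart arrays overlapped no other tissue array, against 20.1% of all probe sets called in heart.

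The Ifit genes, whose proteins bind viral RNA ends, were higher in heart as well: Ifit1 by 2.08 ± 0.31, Ifit3 by 1.96 ± 0.42 and Ifit2 by 1.94 ± 0.49. Usp18 (1.80 ± 0.32), Tap2 (1.54 ± 0.35) and Tap1 (1.51 ± 0.32) rose too. Parp14, an ADP-ribosyltransferase, was called higher as well. The Ifitm genes, which encode membrane proteins that block viral entry, were not called: Ifitm1 stood at -0.61 ± 0.25, Ifitm2 at -0.29 ± 0.23 and Ifitm3 at 0.29 ± 0.21. Without the BIIB heart array the count was 11, and Ifit2 and Tap2 were not called when either heart array was left out. Ifit3 was not called without the one-cycle heart array, nor Tap1 without the BIIB one or when its probe sets were averaged.

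On the arrays labelled brain 16 genes were higher and 1 lower of 34, where 10.7% of all probe sets were called higher and 24.0% lower. Iigp1 had its highest signals of the series' tissues there, 160954 by one-cycle and 165963 by BIIB, against 1354 to 125033 elsewhere (4.13 ± 0.27, adjusted p = 3.1e-07). Its second probe set was called at 4.05. Igtp (40110 and 44768) was 2.52 ± 0.24 above the other tissues, while Irgm1 stood at 0.98 ± 0.27, just short of 2-fold.

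Bst2, or tetherin, which holds budding virions at the membrane, was 2.44 ± 0.31 higher, Irf7 1.92 ± 0.36, Gbp3 1.85 ± 0.33, Ifitm3 1.81 ± 0.21 and Ifitm2 1.67 ± 0.23. Usp18 (1.64 ± 0.32), Ifit3 (1.62 ± 0.42), Oasl1 (1.52 ± 0.39) and Parp14 (1.27 ± 0.27) were higher too. Isg20 was the gene that fell, with 721 and 1688 against 377 to 52977 elsewhere, by 1.76 on the log2 scale (SE 0.27). Ifit3 and Oasl1 were not called without the BIIB array labelled brain. The median change was 0.97 against -0.42 over all probe sets, or 1.08 against -0.18 under quantile normalization.

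**Figure D2:**
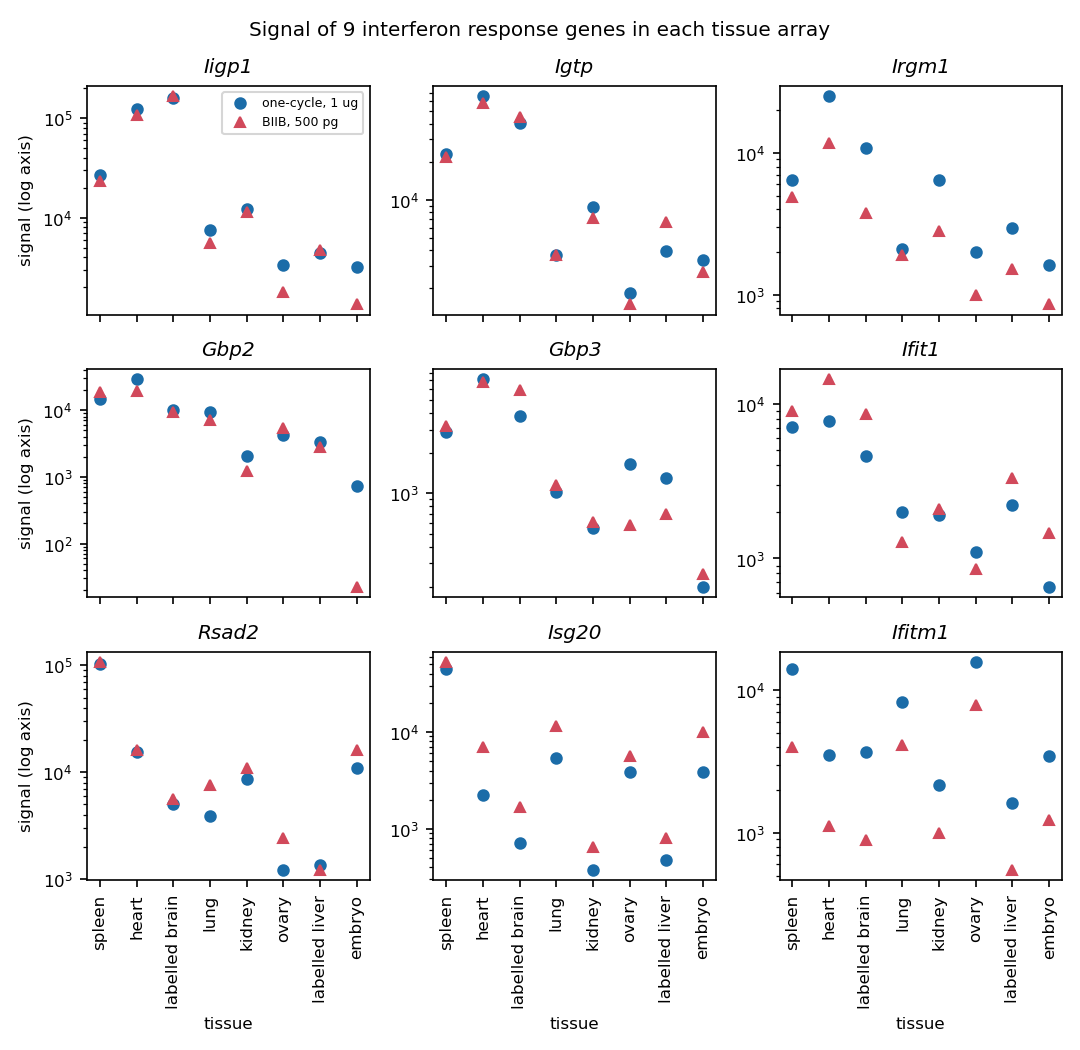
Signal (log axis) of 9 genes in each of 8 tissues, as circles (one-cycle, 1 ug) and triangles (BIIB, 500 pg), 1 array each. Iigp1, Igtp, Irgm1, Gbp2 and Gbp3 peak in heart or on the arrays labelled brain, Rsad2 and Isg20 in spleen, and Ifitm1 in ovary.

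Likeness across the tissues was described by Pearson's r over the 8 tissue means of log2(signal + pseudocount), centred within each protocol, with no test, since the values of all genes come from the same libraries. Among Igtp, Iigp1, Irgm1, Gbp2 and Gbp3 the median r was 0.88 (10 pairs, 0.64 to 0.97), among Ifit1, Ifit2 and Ifit3 it was 0.84 (3 pairs) and over all 630 pairs of members 0.62. The closest gene to Igtp was Iigp1 (r = 0.97), followed by Ifit1 (0.96) and Irgm1 (0.95). Igtp and Isg20 had an r of 0.02, and Igtp and Ifitm1 one of -0.30. The closest gene to Rsad2 was Mx1 (0.88). Ifitm1, Ifitm2 and Ifitm3 were less alike, with a median r of 0.59.

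Embryo lay at the other end, with 0 genes higher and 24 lower of 34, where 10.3% of all probe sets were called higher and 5.71% lower. The median change was -1.55, against 0.04 over all probe sets. Gbp2 had 729 by one-cycle and 22.4 by BIIB in embryo, against 1237 to 29052 in the other tissues (median 8134). Both embryo arrays lay below every other tissue array (-4.30 ± 0.43, adjusted p = 2.6e-05), and its second probe set was called at -3.45. Ifit3 had 621 and 164, against 959 to 16877 (-3.69 ± 0.42), and Gbp3 200.0 and 249, against 547 to 7134 (-2.49 ± 0.33), also with no overlap. These were 3 of the 24 called genes, against 15.2% of all probe sets called in embryo.

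Iigp1 (-2.97 ± 0.27), Parp14 (-2.69 ± 0.27), Usp18 (-2.19 ± 0.32), Tap1 (-2.17 ± 0.32), Tap2 (-2.10 ± 0.35) and Bst2 (-2.10 ± 0.31) were lower as well. So were Sp100 (-1.95 ± 0.27), Lgals3bp, a secreted glycoprotein (-1.84 ± 0.33), and Ifit2 (-1.80 ± 0.49). Ifit2's value rests on the one-cycle array (102, against 2923 by BIIB), and without that array it was -0.51 and not called. Tap2 was not called without that array either, Lgals3bp was not called without the BIIB array and Tap1 was not called when its probe sets were averaged. The 3 tested genes with a positive change in embryo were not called. Rsad2 had 10865 and 16000 (0.83 ± 0.26), Isg20 3864 and 10116 (0.94 ± 0.27) and Ifitm2 33482 and 1117 (0.53 ± 0.23).

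The arrays labelled liver had 0 genes higher and 20 lower, where 15.3% of all probe sets were called higher and 19.4% lower, and a median change of -1.29 against -0.11. Trim25, the ubiquitin ligase that activates the RNA sensor RIG-I, had 1120 by one-cycle and 11848 by BIIB, against 5185 to 151307 in the other tissues. Within each protocol it was lowest there (-3.20 ± 0.23, adjusted p = 9.1e-07), and its second probe set was called at -2.58. Ifitm2 had 3479 and 14.3, against 515 to 68042, again the lowest of each protocol (-3.11 ± 0.23).

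Rsad2 (-2.86 ± 0.26), Isg20 (-2.59 ± 0.27) and Parp14 (-2.59 ± 0.27) fell, and so did the RNA sensor Ifih1 (-2.27 ± 0.32) and Samhd1 (-2.11 ± 0.25), both without overlap with any other tissue array. They were the only 2 of the 20 called genes without overlap, against 28.1% of all probe sets called there. Ifi35 (-1.92 ± 0.30), Iigp1 (-1.72 ± 0.27), Ifitm1 (-1.72 ± 0.25), Bst2 (-1.69 ± 0.31) and Ifitm3 (-1.53 ± 0.21) were the other calls among the 12 largest. Each of these 12 stayed called in every alternative run. The Ifit genes were not called on these arrays: Ifit1 stood at -0.10 ± 0.31, Ifit2 at -0.20 ± 0.49 and Ifit3 at -0.20 ± 0.42.

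Lung had 6 genes higher and 4 lower of 34, where 12.4% of all probe sets were called higher and 9.0% lower. Irf7 had 1081 (one-cycle) and 155 (BIIB), against 953 to 13551 in the other tissues (-2.39 ± 0.36), and Oasl1 413 and 7.50 (-1.65 ± 0.39). Igtp (-1.47 ± 0.24) and Iigp1 (-1.15 ± 0.27) were lower in lung too. Isg20 (1.33 ± 0.27), Sp100 (1.31 ± 0.27), Ifitm3 (1.14 ± 0.21), Ifitm1 (1.08 ± 0.25), Irf1 (1.08 ± 0.24) and Parp14 (1.04 ± 0.27) were higher. The count was 3 without the BIIB lung array and 6 without the arrays labelled brain and liver, and each of these counts included a gene not among the 10. Of the 10, Irf7 and Igtp stayed called throughout.

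Kidney had 0 genes higher and 8 lower, where 10.6% of all probe sets were called higher and 12.4% lower. Isg20 had 377 and 649 in kidney, against 479 to 52977 (-2.90 ± 0.27, adjusted p = 1.3e-05), the lowest tissue within each protocol. Ifitm3 (-1.57 ± 0.21) stayed called in every alternative, as did Isg20. Gbp2 (-1.70 ± 0.43), Gbp3 (-1.33 ± 0.33), Oasl2 (-1.19 ± 0.30), Bst2 (-1.09 ± 0.31), Ifitm1 (-1.08 ± 0.25) and Usp18 (-1.08 ± 0.32) did not, and without the one-cycle kidney array the count was 2.

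Ovary had 2 genes higher and 7 lower, where 8.83% of all probe sets were called higher and 6.59% lower. Ifitm1 had 15729 by one-cycle and 7829 by BIIB in ovary, the highest tissue of each protocol, against 550 to 14042 in the other tissues (2.13 ± 0.25, adjusted p = 0.00015). Bst2 was the other gene that rose (1.51 ± 0.31). Igtp had 1823 and 1497 in ovary, below every other tissue array (2685 to 65686, -2.72 ± 0.24). It was the 1 of the 9 called genes without overlap, against 13.8% of all probe sets called in ovary. Iigp1 (-2.71 ± 0.27), Rsad2 (-2.41 ± 0.26), Ifit2 (-1.94 ± 0.49), Ifit1 (-1.67 ± 0.31), Ifit3 (-1.66 ± 0.42) and Irgm1 (-1.40 ± 0.27) fell. Without the BIIB ovary array 4 genes were called, and without the one-cycle array 5.

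Other genes of the pathway were taken from 4 lists. Their counts are small and stand beside shares of all probe sets called higher of 14.8% in spleen, 10.4% in heart and 10.7% on the arrays labelled brain, and lower of 5.71% in embryo and 19.4% on the arrays labelled liver. Class I presentation, with 8 of its 10 genes tested, had 4 higher in spleen, 7 in heart and 6 on the arrays labelled brain, and 7 lower in embryo and 5 on the arrays labelled liver. Psmb8, a subunit of the immunoproteasome, was at 2.53 ± 0.28 in spleen, 2.44 ± 0.28 in heart, 1.77 ± 0.28 on the arrays labelled brain, -2.74 ± 0.28 in embryo and -1.76 ± 0.28 on the arrays labelled liver. H2-K1, a class I heavy chain, was at 2.18 ± 0.24 in spleen and -2.90 ± 0.24 in embryo. Of the ligands and receptors 5 of 11 passed the filter, with 1 higher in spleen and 2 in heart, among them Ifngr2, a chain of the interferon gamma receptor (2.48 ± 0.45). Of the sensing genes, 10 tested, 4 were higher in spleen, led by Irf8 (3.29 ± 0.40), and 4 were lower in embryo. Of the signalling genes, 8 tested, 2 were higher in spleen, led by the phosphatase Ptpn6 (3.34 ± 0.30).

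Immune cell markers varied over the same tissues. All 12 myeloid markers had a mean signal of at least 500 in spleen, and their summed signal was 246760 to 300138 in spleen, 188951 to 299875 in lung, 178465 to 186108 on the arrays labelled brain and 91699 to 102175 in heart. It was 42482 to 58724 in ovary, 37066 to 47595 in embryo, 30821 to 46715 on the arrays labelled liver and 18210 to 29146 in kidney. B cell markers summed to 77617 to 112371 in spleen (8 of 9 at a mean of at least 500) and 773 to 10169 in the other tissues. T cell markers summed to 16427 to 29036 in spleen (8 of 9), 8655 to 12255 in heart (6 of 9), 34993 to 53905 on the arrays labelled liver (1 of 9) and 1114 to 6199 in the remaining tissues. NK and dendritic cell markers summed to 24541 to 27016 in spleen (8 of 9), 8310 to 20217 on the arrays labelled brain (3 of 9), 9976 to 13941 in lung (6 of 9), 6437 to 11383 in heart (5 of 9) and 1313 to 5707 in the remaining tissues. Of the 12 myeloid markers, 9 had a mean signal of at least 500 in lung, and 8 to 11 did in the remaining tissues other than spleen. The part of cell make-up in these results was not tested. In tissue RNA, fewer cells of a type and less RNA per cell cannot be told apart.

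Universal RNA was set against the mean of the 8 tissues, with 8 arrays at the same inputs and protocols. Of 33 genes tested 1 was higher and 10 were lower, where 14.3% of all probe sets were called higher and 14.3% lower, and the median change was -0.67 against 0.14. Iigp1, Igtp, Irgm1 and Gbp2 were among the lower genes, and Gbp3 was not called. Iigp1 had 936 to 1229 in universal RNA by one-cycle and 451 to 1489 by BIIB, against 1354 to 165963 over the 16 tissue arrays (-3.58 ± 0.17, adjusted p = 1.3e-12). The highest universal array passed only the lowest tissue array.

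Ifitm1 had 131 to 227 by one-cycle and 151 to 766 by BIIB in universal RNA, against 550 to 15729 (-3.02 ± 0.29). Igtp (-2.29 ± 0.20), Gbp2 (-1.87 ± 0.21), Rsad2 (-1.55 ± 0.18), Ifit1 (-1.53 ± 0.18), Irgm1 (-1.42 ± 0.15), Ifih1 (-1.29 ± 0.20), Ifit3 (-1.26 ± 0.23) and Lgals3bp (-1.21 ± 0.19) were lower as well. Oasl1 was the gene that rose, with 1224 to 2488 in universal RNA, against 7.50 to 4473 in the tissues (median 460, change 1.53 ± 0.20). The spleen arrays were above the universal ones for Oasl1.

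That fit takes its error from arrays of the same RNA and not from the spread between tissues. Fitted within 1 protocol, where the tissues' own spread is the error, one-cycle arrays gave 3 calls (Iigp1, Ifitm1 and Lgals3bp, all lower), and BIIB arrays gave 0 by limma with 8 of 32 genes at an unadjusted p below 0.05. Class I genes were lower too in the fit of both protocols (3 of 8), with H2-K1 at -1.41 ± 0.17 and Psmb9 at -1.33 ± 0.18. Myeloid markers summed to 33287 to 43807 in universal RNA, within the range of the tissues.

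**Figure D3:**
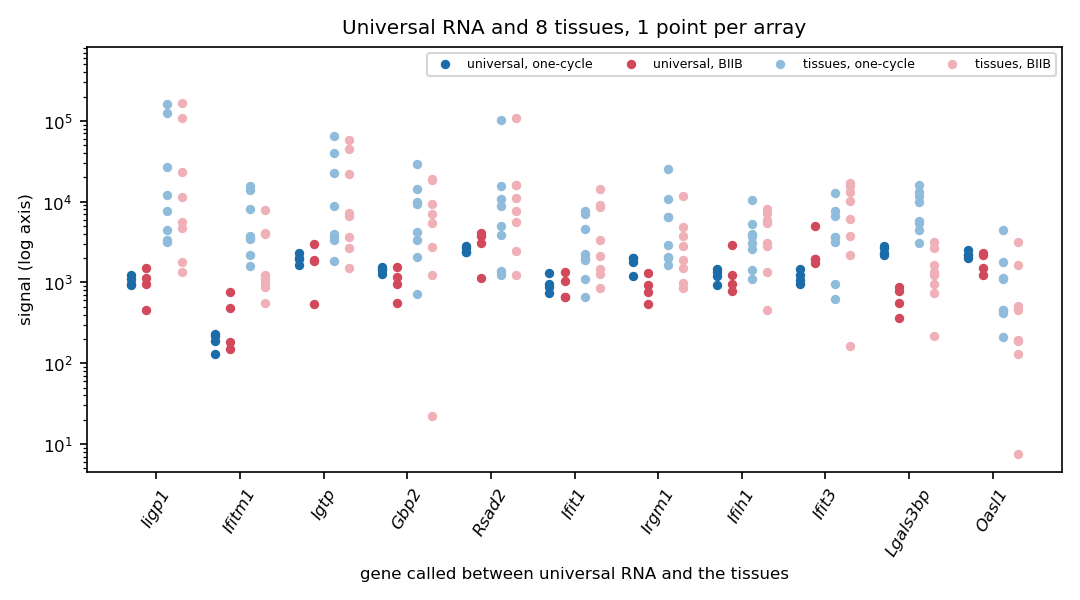
Signal (log axis) of the 11 genes called between universal RNA (dark points, left of each pair) and the 8 tissues (pale points), 1 point per array, blue for one-cycle and red for BIIB. The universal arrays of Iigp1 lie between 451 and 1489 and the tissue arrays between 1354 and 165963, and Oasl1 is the gene whose universal arrays lie above most tissues.

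Between the protocols 13 of 34 genes were called, a count near the background, since 36.6% of all probe sets were called. With tissue as a covariate, 5 of 34 genes were higher and 8 lower by BIIB than by one-cycle, where 12.3% of all probe sets were called higher and 24.4% lower. Ifitm2 had 14.3 to 2325 by BIIB (median 1181) and 3479 to 68042 by one-cycle (median 31174), with no overlap (-4.53 ± 0.15, adjusted p = 3.4e-09). The 3 Ifitm genes all fell, Ifitm3 by 1.62 and Ifitm1 by 1.38 on the log2 scale. Cmpk2, a mitochondrial nucleotide kinase, had 17.0 to 308 by BIIB and 457 to 3848 by one-cycle (-2.17 ± 0.22), and Stat2 172 to 761 and 787 to 2285 (-1.38 ± 0.18), both without overlap. In all, 3 of the 13 called genes had no overlap between the protocols, against 27.5% of all probe sets called.

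Lgals3bp (-2.53 ± 0.22), Usp18 (-1.60 ± 0.21) and Rtp4 (-1.25 ± 0.17) were lower by BIIB too. Parp14 (1.87 ± 0.18), Ifit2 (1.49 ± 0.32), Ifi35 (1.28 ± 0.20) and Samhd1 (1.02 ± 0.17) were higher. Trim25 had 11848 to 151307 by BIIB and 1120 to 15119 by one-cycle on its brightest probe set (3.61 ± 0.15), but its second probe set stood at 0.10 and was not called. The other 3 probe sets of Samhd1 stood at -0.44, -0.79 and -0.29, not called, and Samhd1 was at -0.13 when its probe sets were averaged. Rsad2 (0.36), Trim30a (-0.34) and Gbp2 (-0.48) were not called on their brightest probe sets. On another probe set they were called, at -2.02, -1.71 and -1.01. A level of these genes therefore holds for 1 probe set and for 1 protocol at its input. Quantile normalization took the median of all probe sets to -0.03, against -0.27 with the main scaling.

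No interferon response gene was called between sorted B cells and sorted T cells at 100 cells. Of 33 genes limma called 0, with 2 at an unadjusted p below 0.05, where 0.164% of all probe sets were called higher and 0.0764% lower. T cell markers summed to 4474 to 9300 on the 3 arrays of B cells and 170208 to 206572 on the 3 of T cells, and B cell markers to 350159 to 510534 and 5949 to 9949. A slope on the B cell share over all 18 arrays gave 0 calls, with 5 genes at an unadjusted p below 0.05. Replicate pairs at 100 cells had a correlation of 0.59 to 0.65 over the probe sets, which are no independent replicates, and this spread limits what could be called.

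Gbp2 and Igtp had the largest differences of the 33 genes at 100 cells, and neither was called. Igtp had 5718 and 4067 on the 2 arrays of 100 B cells, against 48095 and 21078 on those of 100 T cells, with no overlap (-2.69 ± 1.28, adjusted p = 0.78). At 500 cells, with 1 array per mixture, Igtp had 31859, 32742, 27622, 27614, 16724 and 2780 at 0, 20, 40, 60, 80 and 100% B cells. The 100% B array stood below every mixture that held T cells. Iigp1 had 593 on the array of 500 B cells, against 12352 on that of T cells. At 100 cells Iigp1 had 1231 and 1564 in B cells, against 2290 and 5097 in T cells (-1.23 ± 1.48). Gbp2 had 318 and 64.6 on the arrays of 100 B cells, against 5661 and 6014 on those of T cells (-4.36 ± 1.52, adjusted p = 0.57), but 1725 on the array of 500 B cells, against 3981 on that of T cells.

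Ifih1 was also lower in each B cell array, with 423 and 438 at 100 cells and 89.0 at 500 cells, against 1853 and 4639 at 100 cells and 2031 at 500 cells in T cells. Samhd1 went the other way, with 50144 and 33431 at 100 cells and 76711 at 500 cells in B cells, against 25919 and 8054 at 100 cells and 32937 at 500 cells in T cells. Neither was called (Ifih1 -2.47 ± 1.08, adjusted p = 0.72, and Samhd1 1.49 ± 1.01, adjusted p = 0.92). Other probe sets of Samhd1 stood at 0.50, 1.19 and -0.55 at 100 cells, none of them called. The 2 arrays of B cells and of T cells at 100 cells did not overlap for 10 of the 33 genes, and 34.4% of all probe sets tested did not overlap either, so the count is near the background. Over all 33 genes, 22 had the same direction at 500 cells and 11 the opposite one.

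RAW267 cells carried myeloid markers. The myeloid sum was 444319 to 922217 in RAW267 cells against 3506 to 112193 in lymphocytes. By count the lists differed less, since 9 of 12 myeloid markers had a mean signal of at least 500 in RAW267 cells and 7 of 12 in lymphocytes. In RAW267 cells 0 of 9 B cell markers and 1 of 9 T cell markers had such a mean. Against the 18 lymphocyte arrays 2 of 33 interferon response genes were higher and 16 lower in the 11 RAW267 arrays, where 16.8% of all probe sets were called higher and 31.8% lower. Of the 36 genes, 26 had a mean signal of at least 500 in RAW267 cells and 33 in lymphocytes. Some, Gbp2 and Iigp1 among them, thus passed the filter only through lymphocytes and could hardly be called higher. The median signal per array was 368 to 570 in RAW267 cells and 776 to 1171 in lymphocytes. The median change was -1.10 against -0.33 over all probe sets, and -0.48 against 0.08 under quantile normalization, which called 3 higher and 13 lower.

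Ifitm3 had 4695 to 11688 in RAW267 cells (median 7803), against 78.1 to 2450 in lymphocytes (median 939), with no overlap (3.12 ± 0.33, adjusted p = 2.2e-09). Lgals3bp was the other gene that rose, with 845 to 2821, against 41.5 to 1595 (1.89 ± 0.39). Of the 5 GTPases, Gbp2, Iigp1, Igtp and Gbp3 were called lower and Irgm1 was not called. Gbp2 had 6.10 to 333 in RAW267 cells (median 32.5), against 64.6 to 18118 in lymphocytes (median 3518, -3.75 ± 0.53), and its second probe set was called at -3.30. Iigp1 had 77.4 to 419 (median 140), against 173 to 16251 (median 4690, -3.38 ± 0.48).

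Igtp (-3.08 ± 0.46) and Gbp3 (-3.05 ± 0.40) were lower as well, and Irgm1 stood at -0.50, not called. Irf1, the factor that drives the interferon gamma response, had 781 to 8684 in RAW267 cells, against 10571 to 37779 in lymphocytes, with no overlap (-2.62 ± 0.29, adjusted p = 4.5e-09). Parp14 had 367 to 15726, against 18949 to 66332, also without overlap (-2.35 ± 0.41). The low end of Parp14 came from both arrays of 50 RAW267 cells, 649 and 367, while the other 9 lay between 7258 and 15726.

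Mx1 (-2.35 ± 0.53), Trim30a (-2.24 ± 0.32), Ifit3 (-2.03 ± 0.37), Sp100 (-1.97 ± 0.37), Tap1 (-1.96 ± 0.39) and Ifit2 (-1.66 ± 0.43) completed the 12 with the largest change. Arrays of 100 and 500 cells on both sides gave 8 calls, 1 higher and 7 lower, which kept Ifitm3, the GTPases Gbp2, Gbp3, Igtp and Iigp1, and Irf1, Ifit3 and Trim30a. Among the pathway lists, 5 of 8 class I genes were lower in RAW267 cells, with B2m, the class I light chain, at -1.85 ± 0.23, and Jak1, a kinase of both interferon receptors, was at -2.17 ± 0.26. Other probe sets were called for 4 genes whose brightest was not. Eif2ak2, the RNA-activated kinase PKR, stood at 0.29 on its brightest and was called at -1.95 on its other. Samhd1 stood at -0.30 and was called at -1.43, -1.45 and -1.84 on its other 3. Rsad2 (-0.65) was called at -1.75 and Trim25 (0.89) at 1.57 on another.

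**Figure D4:**
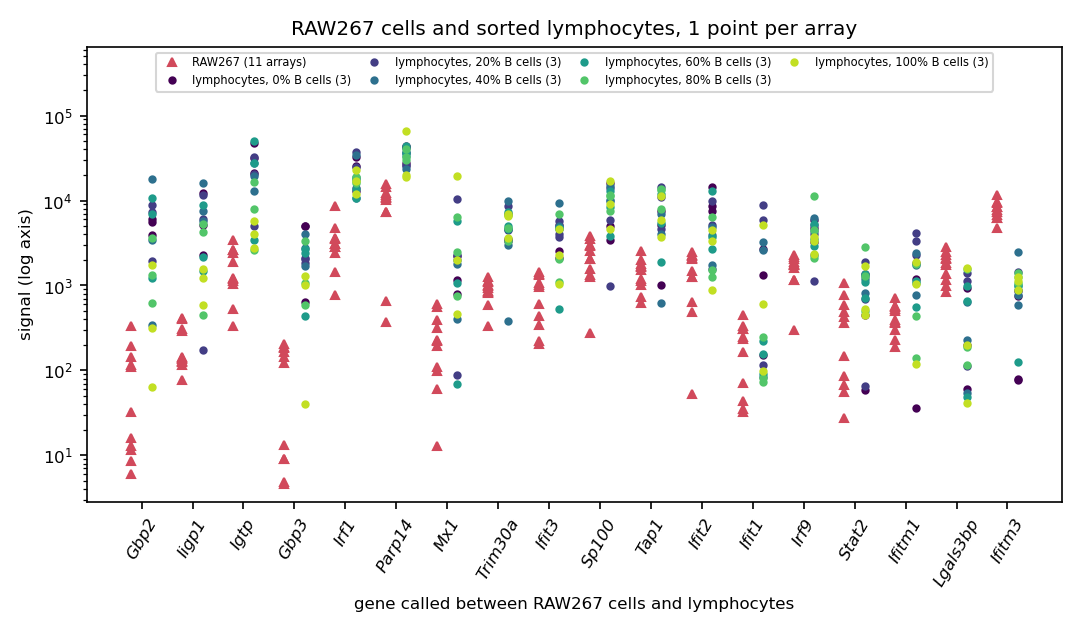
Signal (log axis) of the 18 genes called between RAW267 cells (triangles, left) and lymphocytes (circles, coloured by the share of B cells), 1 point per array, with genes ordered by change. Irf1, Parp14 and Ifitm3 are the 3 genes without overlap. Of all probe sets called in this comparison, 8.51% did not overlap.

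Within RAW267 cells the number of cells, 50 to 10000, moved 1 of 26 genes tested, where 2.26% of all probe sets were called higher and 0.679% lower. Ifit2 had 52.7 and 482 at 50 cells, 635 at 100, 1248 and 2273 at 500, 1464 and 1275 at 1000, 2194 and 2118 at 5000 and 2456 and 2032 at 10000 cells. The fitted difference over the range was 2.61 ± 0.53 (adjusted p = 0.037). No call was left without either array of 1000, 5000 or 10000 cells or without the first array of 50 cells, and 5 were made without the array of 100 cells. The count was also 0 with a pseudocount of 25 or with no filter, 2 under quantile normalization and 6 with a replicate block. Eif2ak2 (2.29 ± 0.57, adjusted p = 0.05) and Parp14 (2.80 ± 1.05, adjusted p = 0.13) were not called.

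The genes' replicate spread in universal RNA grew as the input fell. With BIIB, the median SD of log2(signal + pseudocount) between 4 arrays, over genes with a mean signal of at least 500, was 1.62 at 10 pg, 1.09 at 50 pg, 0.57 at 100 pg, 0.51 at 500 pg, 0.31 at 1 ng and 0.26 at 5 ng. Over all probe sets with such a mean at the same input it was 1.49, 0.90, 0.53, 0.36, 0.33 and 0.27. The number of the 36 genes at a mean signal of at least 500 was 24, 26, 29, 31, 30 and 31 at the same inputs. One-cycle from 1 ug gave 0.15, with 32 genes. Between 2 arrays the 3 other kits gave 1.09 to 1.54 at 50 pg and 0.073 to 0.17 at 500 ng.

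At 50 pg limma called 0 of 31 genes against 5 ng, with 7 at an unadjusted p below 0.05, where 0.0172% of all probe sets were called higher and 1.01% lower. Without 50 pg replicate 1, 2 or 4 it called 3, 1 and 3, all lower. Samhd1 had 20950, 35163, 1093 and 754 at 50 pg, against 8782 to 11940 at 5 ng, so 2 arrays lay above and 2 far below. The 4 arrays held the same RNA.

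At 10 pg 6 of 30 genes were lower than at 5 ng and 0 higher, where 0.729% of all probe sets were called higher and 11.4% lower. Of the 36 genes, 24 had a mean signal of at least 500 at 10 pg and 31 at 5 ng. Some, Ifit1 among them, thus passed the filter only through the 5 ng arrays and could hardly be called higher. Samhd1 had 970, 46.7, 854 and 243 at 10 pg, against 8782 to 11940 at 5 ng (-4.27 ± 0.63, adjusted p = 0.0042), and held its call in every alternative run. That drop is of its brightest probe set, and another probe set of Samhd1 stood at -0.91, not called. Ifit1 had 302, 246, 7.60 and 24.4 at 10 pg, against 777 to 2014 at 5 ng (-2.41 ± 0.55). Gbp2 (-2.30 ± 0.63), Parp14 (-2.29 ± 0.49), Trim30a (-2.16 ± 0.61) and Ifit3 (-2.08 ± 0.56) were lower, also without overlap. Of all probe sets called at 10 pg, 98.9% did not overlap, so this adds nothing to the call. The second probe set of Gbp2 stood at -1.77, not called. In all 1 call was left without any 1 array of 5 ng or under quantile normalization. The genes' median change was -1.33 against -0.78 over all probe sets, or -0.55 against -0.26 under quantile normalization.

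**Figure D5:**
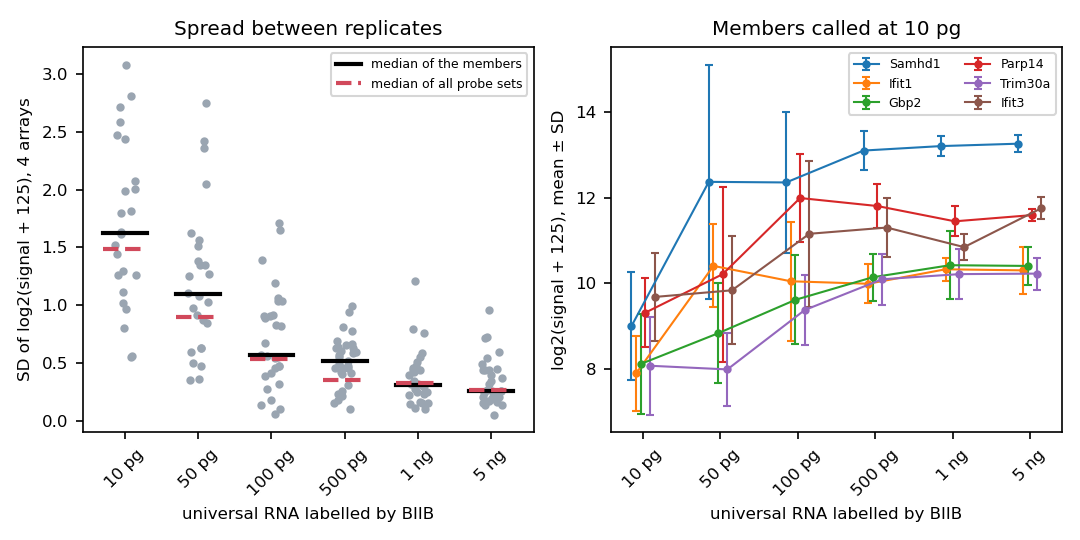
Universal RNA labelled by BIIB from 10 pg to 5 ng, 4 arrays per input. Left, the SD of log2(signal + pseudocount) of each gene with a mean signal of at least 500. Lines are the median of these genes (black) and of all probe sets with such a mean (dashed red), 1.62 and 1.49 at 10 pg and 0.26 and 0.27 at 5 ng. Right, the mean ± SD of the 6 genes called at 10 pg, each by its brightest probe set, with Samhd1 the largest drop.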

How the data were processed

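The deposited values are MAS5 signal intensities per probe set on a linear scale; the authors used MAS5, per the submitters' processing notes, and its version is not given in the sources used here. Each array was rescaled to the common trimmed mean (2499.28 to 2499.83 as deposited, 2% trimmed at each end), and 64 control probe sets were left out. Of 22690 probe sets, 20393 had 1 gene symbol in the platform annotation.

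Differences were tested, two-sided, with limma 3.58.1 in R 4.3.3 on log2(signal + pseudocount) over all probe sets with a mean signal of at least 500 in the arrays of a fit, with Benjamini-Hochberg adjustment. Figures were drawn with matplotlib 3.10.9 in Python 3.11.15. The script was tested on simulated data. Tissue fits had tissue and protocol as terms. The number of arrays limits the precision.

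The members and lists were chosen with earlier results of these data known. Called members are named where 12 or fewer were called, otherwise the 12 with the largest change, with uncalled members of a described family and at most 6 pathway genes. Isg20 and Rsad2 in embryo, Rsad2, Trim30a and Gbp2 between the protocols and Ifih1 and Samhd1 between B and T cells were named after their values were seen. So were Eif2ak2, Samhd1, Rsad2 and Trim25 in RAW267 cells, Eif2ak2 and Parp14 over the number of those cells and Samhd1 at 50 pg. Alternatives were another pseudocount, no filter, quantile normalization, the mean of a gene's probe sets, subsets of arrays, a replicate block and leaving out each array.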

Additional observations from a re-analysis of the deposited data

Results flagged for a closer look

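Among 34 groups of 4 arrays, 2 had 1 array far from the other 3, and chance flags about 1 in 20 such groups. Ifit3 had 5028 in BIIB universal RNA at 500 pg, replicate 2, against 1751 to 1942 in the other 3 arrays. Parp14 had 152 at 10 pg, replicate 4, against 638 to 799 in the other 3.

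Of the 10 genes whose B and T arrays did not overlap at 100 cells, 2 had a B minus T difference of the opposite sign at 500 cells. Over all 33 genes tested, 11 did. Tap1 stood at -0.998 at 500 cells and 1.76 at 100 cells, and Trim30a at -0.0756 at 500 cells and 0.53 at 100 cells. Neither difference between cell numbers was tested, and there was 1 array per cell type at 500 cells. Other probe sets had the opposite sign at 100 cells, at -2.23 and -0.19 for Tap1 and -2.54 for Trim30a, none of them called. The reversals therefore hold for the brightest probe set.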

How the results depend on the processing

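Counts of called members, leaving out each array in turn, ranged from 19 to 28 in spleen, 3 to 12 in lung (3 without the BIIB lung array), 17 to 25 in embryo, 11 to 18 in heart (11 without the BIIB heart array), 2 to 9 in kidney (2 without the one-cycle kidney array), 4 to 9 in ovary, 12 to 18 on the arrays labelled brain and 18 to 21 on those labelled liver. They ranged from 11 to 12 for universal RNA, 11 to 13 for BIIB, 16 to 18 for RAW267 cells, 0 to 5 for the cell number trend, 0 to 3 at 50 pg and 1 to 8 at 10 pg, and stayed at 0 between B and T cells. Without the arrays labelled brain and liver, lung had 6 calls; those 2 tissues could not be run that way. Universal RNA had 3 calls on one-cycle arrays alone and 0 on BIIB arrays alone (8 at an unadjusted p below 0.05 by limma). RAW267 cells had 8 calls on arrays of 100 and 500 cells alone. The cell number trend had 0 calls with a pseudocount of 25 or no filter (5 and 8 unadjusted), 2 under quantile normalization and 6 with a replicate block. The 50 pg comparison had 1 call with no filter. The 10 pg comparison had 3 calls with a pseudocount of 25, 1 under quantile normalization and 1 with a replicate block. The block left B against T cells and 50 pg at 0. No label says that a number pairs arrays. Correlations of same-numbered deviations were 0.036 to 0.082 at 50 pg, -0.031 to 0.017 at 10 pg, 0.0097 to 0.085 in lymphocytes and -0.047 to 0.24 in RAW267 cells. Arrays matched their own number best in 15 of 15 lymphocyte and 7 of 10 RAW267 pairs of groups, a hint from the data and not from the design. Samhd1 between BIIB and one-cycle reversed to -0.13 as the mean of its probe sets. Causes of these moves were not tested. Quantile normalization changed the split of all RAW267 calls to 3387 higher and 2467 lower, against 2761 and 5218. Replicate arrays correlated least with 50 pg by the other kits (0.26 to 0.40), 100 lymphocytes (0.59 to 0.65) and 10 pg by BIIB (0.64 to 0.70), and comparisons on such arrays could miss differences.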
